A study of Mus musculus with 12 samples.

Results

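The step 5 control cells are unsorted mouse cells at the end of a neural differentiation protocol, and their RNA was set against RNA of the undifferentiated mouse embryonic stem cells (mESC) on the same arrays. They make up 3 of the 12 samples of the series, 1 array for each of 3 biological replicates, and were chosen by that label alone. Of 39429 probes on each array, those well above background in the sample (Cy5) or in mESC (Cy3) on all 3 arrays were kept. The probe with the highest mean intensity stood for its gene, which gave 20491 genes tested, 15750 of them with a symbol.

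All groups derive from C57BL/6 mESC that carry eGFP under the actin promoter, grown with serum on mitomycin-treated mouse fibroblast feeders. Feeders were removed with magnetic beads before differentiation, and embryoid bodies of 4 days were plated, selected for 6 days in serum-free ITSFn medium, expanded as neural precursors for 5 days with bFGF at 10 ng/ml (step 4), and differentiated for 7 days without bFGF in B27 medium with ascorbic acid at 200 µM (step 5). The control groups of both steps were not enriched, and the enriched groups were selected magnetically for PSA-NCAM, a neural cell adhesion molecule with polysialic acid chains that young neurons and their precursors carry. Each group had 3 replicates. The labels do not state at which end of the last 7 days the enriched step 5 cells were sorted, nor whether the reference mESC were freed of feeder cells. The mESC reference is 1 RNA in the same dye on every array, with 0 dye swaps, so its own spread is left out of every test and a dye bias of a probe cannot be told apart from a difference.

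Embryonic stem cells hold a network of transcription factors, with Pou5f1, Nanog and Sox2 at its centre, that keeps them undifferentiated. In neural protocols this network is shut down while precursors with radial glia genes appear, followed by neurons and later by astrocytes and oligodendrocytes. Such cultures can also hold cells of other germ layers and cells that remain undifferentiated, and RNA of the unsorted dish is a mean over all of them. In bulk RNA like this, fewer cells of a type and less RNA per cell cannot be told apart.

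Values are log2 ratios of Cy5 to Cy3, so 0 is the mESC level and 1 is a doubling. They are given for arrays 1, 2 and 3, which are replicates 1, 2 and 3 and lay on slides 1, 2 and 3. Means are followed by the standard error (SE) of a limma model over all 12 arrays and its two-sided p adjusted by Benjamini and Hochberg (adjusted p), with a threshold of 0.05. Where the dimmer channel was not well above background on any of the 3 arrays, the fold is a lower bound, taken on each array against the higher of the dimmer channel's own signal and the lowest signal that counted as above background there, so that it equals the fitted fold where the former was the higher. Probe positions are those of mouse build mm9.

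A large share of the genes differed from mESC. Of the 20491 genes, 9932 passed the test (48.5%), 5586 of them higher (27.3%) and 4346 lower (21.2%), and 2104 of the higher and 619 of the lower genes changed at least 2-fold. Of the 9932 genes, 9780 lay on the same side of mESC on all 3 arrays. Counts of list members below are to be read against the shares of 27.3% higher and 21.2% lower. The median gene lay at 0.033 by within-array loess, at 0.36 when each array was instead centred on the median ratio of its probes, and at -0.11 with the scanner's own normalization, and directions below are read against these levels. The split moved with them, to 9749 higher and 1568 lower genes after centring and to 4632 higher and 6080 lower with the scanner's normalization. Fitting the 3 arrays alone called 6223 genes, 3815 higher and 2408 lower.

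Array 2 stood apart from the others. Across genes, arrays 1 and 3 correlated at 0.921, arrays 2 and 3 at 0.766, and arrays 1 and 2 at 0.672. Array 2 was the farthest for 52.4% of all genes, and for 349 of the 384 genes whose values spanned more than 2 log2 units. The slide of array 2 had its scan on a different day from the others and its readout by a different version of the scanner's software, so the replicate and the slide cannot be told apart. Many lists and genes that depend on array 2 are therefore also given without it, but not all of them.

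The fixed cell type markers were first used to check the label. On all 3 arrays Cy5 exceeded background well for 9 of 9 neuron markers, 4 of 5 markers of neural precursors, 4 of 5 of astrocytes and 6 of 6 of the oligodendrocyte lineage, and also for 5 of 5 of pluripotent cells, 3 of 3 of germ cells, 6 of 6 of fibroblasts, 4 of 5 of muscle, 4 of 4 of endothelium, 5 of 5 of endoderm and 4 of 4 of epithelium. The precursor marker Pax6 and the astrocyte marker S100b were well above background on 2 of the 3 arrays at most and were not tested. Of 4 markers of blood cells and microglia, 2 (Csf1r and Hba-a1) were well above background on all 3 arrays. The other markers, Ptprc and Aif1, reached that level on 1 array each. Such detection is common, as Cy5 reached that level on 25605 to 29078 of the 39429 probes per array. Against mESC, 5 of 9 neuron markers, 3 of 4 tested precursor markers, 3 of 4 tested astrocyte markers, 6 of 6 fibroblast markers, 3 of 3 germ cell markers and 3 of 5 endoderm markers were higher (27.3% of all genes were). Lower were 2 of 5 markers of pluripotent cells (21.2% of all genes were). Oligodendrocyte lineage markers were mixed, with 2 higher and 2 lower of 6, and so were epithelial ones, with 2 and 1 of 4. Of tested muscle markers 2 of 4 were higher, of endothelium 1 of 4, and of blood and microglia 1 of 2 was lower. The samples labelled as differentiated cells thus held RNA of neural genes together with that of mesenchyme, endoderm, germline and pluripotency genes.

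**Figure D1:**
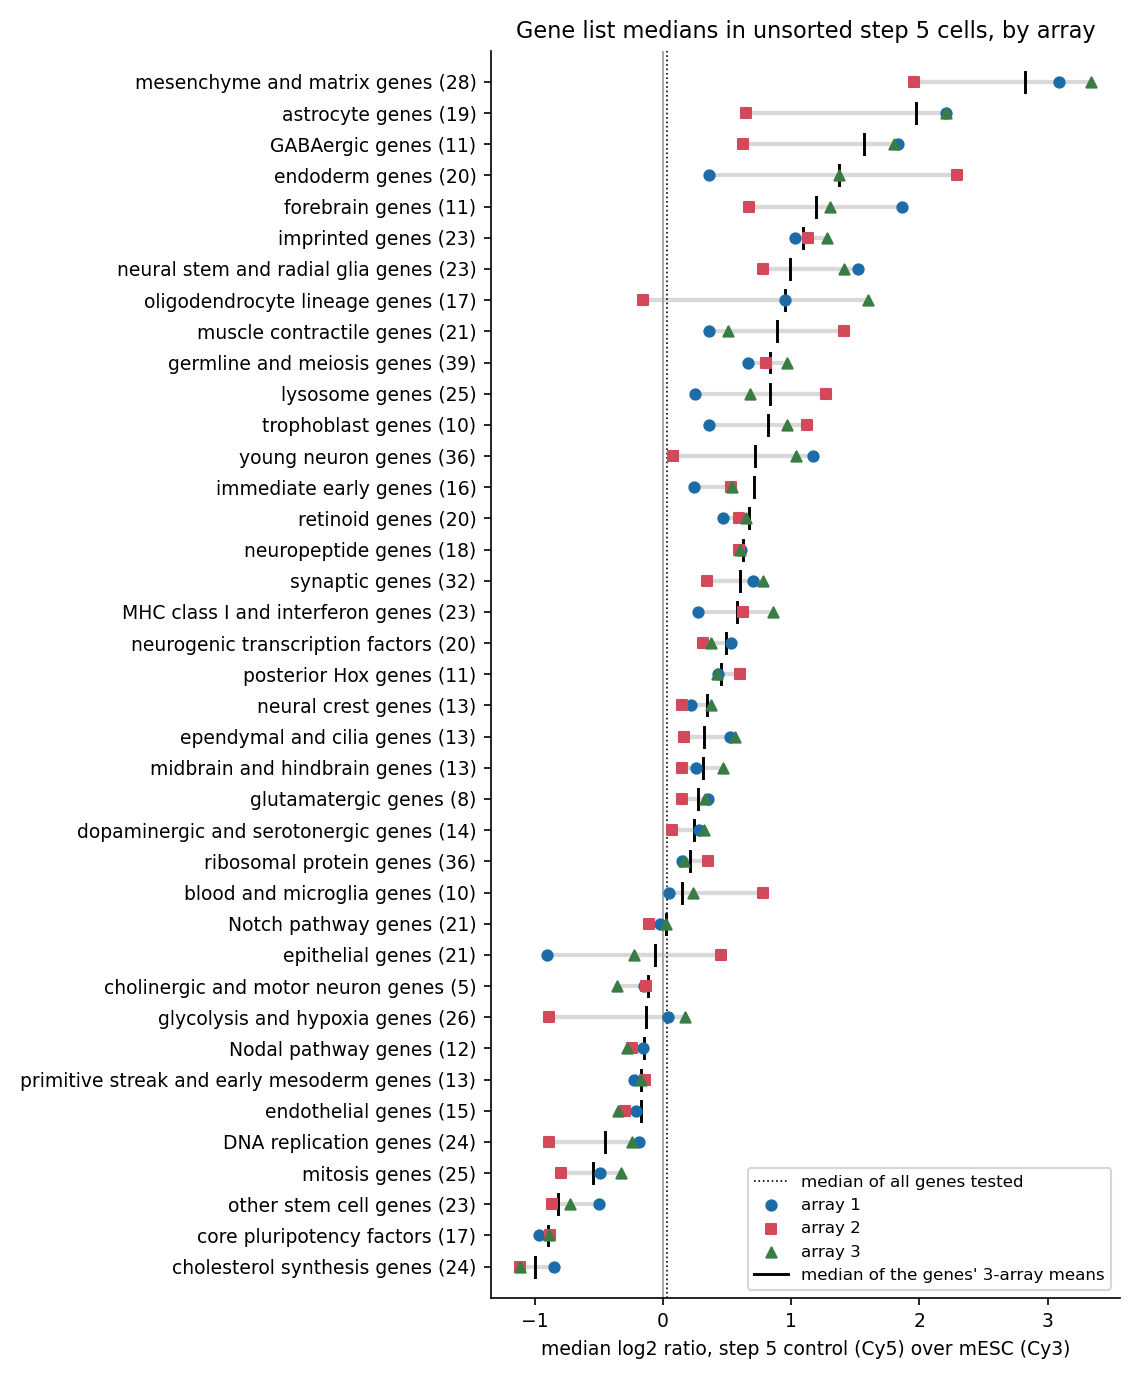
Median log2 ratio to mESC of the tested members of each gene list (horizontal axis, log2) on each step 5 control array, with a bar at the median of the genes' 3-array means and a dotted line at the median of all genes, and the number of tested members beside each list. Mesenchyme and matrix genes lie highest at a median of 2.82 and cholesterol synthesis genes lowest at -1.0, and array 2 lies apart from arrays 1 and 3 in the astrocyte, endoderm and young neuron lists.

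Mesenchyme and matrix genes made up the list with the largest rise: 26 of 28 tested members were higher and 0 lower, with a median of 2.82 (3.09, 1.96 and 3.34 on arrays 1, 2 and 3), where 27.3% of all genes were higher, and all 28 lay above mESC on every array (36.3% of all genes did). Col1a1, a chain of type I collagen of bone, skin and connective tissue (probe at chr11:94813115-94813174), measured 7.5, 5.92 and 8.06, a mean of 7.16 (SE 0.43, adjusted p 1.51e-06), or 143.0-fold. Its partner chain Col1a2 measured 5.97, 5.97 and 6.27, a mean of 6.07 (SE 0.2, adjusted p 6.72e-08), and Col3a1, the type III chain of elastic tissue, averaged 6.06 (SE 0.24, adjusted p 1.39e-07). All 3 arrays lay far above mESC for the 3 collagens, with array 2 the lowest for Col1a1, whose mean was 7.78 without it, and Col3a1.

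Lum, which encodes the proteoglycan lumican of collagen fibrils, measured 7.12, 3.1 and 7.22 and was at least 56.1-fold higher (adjusted p 0.000172). Array 2 was the low one there, and the mean of 5.81 became 7.17 without it, 5.16 without array 1 and 5.11 without array 3. Postn, a matrix protein of mesenchymal cells, was at least 30.8-fold higher at 5.38, 3.51 and 5.94. Its mean of 4.94 became 5.66 without array 2. Twist1, a mesenchymal transcription factor, averaged 1.28 (SE 0.31, adjusted p 0.00671), a call lost without the 4 arrays of slide 2 (adjusted p 0.0553). Tcf21 and Twist2 of this list were not well above background in either channel on all 3 arrays and were not tested.

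The largest rises outside that list included glial, epithelial and secreted proteins. Anxa1, the lipid-binding annexin A1, measured 5.52, 7.09 and 5.94, a mean of 6.18 (SE 0.43, adjusted p 3.71e-06). Gpm6b, a membrane proteolipid of neurons and glia, averaged 5.94 (SE 0.4, adjusted p 2.89e-06), and Emp1, an epithelial membrane protein, 5.52 (SE 0.4, adjusted p 4.49e-06), or 6.14 without array 2. Col4a1, a basement membrane collagen, measured 4.33, 6.34 and 4.9, highest on array 2, with a mean of 5.19 (SE 0.5, adjusted p 2.15e-05). Cpe, carboxypeptidase E, which trims peptide hormones, averaged 4.82 (SE 0.35, adjusted p 4.77e-06). Prl2c5, a placental prolactin-family hormone, measured 3.24, 6.28 and 5.66 and averaged 5.06 (SE 0.69, adjusted p 0.000206), and came to 4.45 without array 2 and 5.97 without array 1.

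Genes of the neural stem cell and its radial glia were raised as a group, with 15 of 23 tested members higher (65.2% against 27.3% of all genes). In this list 1 member was lower, and the median was 0.99. Fabp7, the brain fatty acid binding protein of radial glia, measured 5.57, 4.98 and 5.71, a mean of 5.42 (SE 0.24, adjusted p 2.55e-07), or 42.8-fold, and all 3 arrays lay close together. Nes, the intermediate filament nestin, measured 1.83, 0.73 and 1.41, a mean of 1.32 (SE 0.27, adjusted p 0.00274). The early neural factor Sox1 averaged 0.85 (SE 0.27, adjusted p 0.0235), a call lost without array 1 (0.67, adjusted p 0.13) and without array 3 (0.77, adjusted p 0.107), and its 2 probes lay on opposite sides of mESC. Hes5, a Notch effector of neural precursors, measured 1.28, -0.58 and 1.74 and did not pass the test (0.81, SE 0.65, adjusted p 0.325). Its mean was 1.51 without array 2 (adjusted p 0.131).

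Regional genes were uneven. Of the forebrain list, 6 of 11 tested members were higher (54.5% against 27.3% of all genes) and 1 lower, with a median of 1.19. Of the list's 20 genes 9 were not tested. Zic1, a factor of dorsal neural tissue, was at least 17.5-fold higher (4.66, 3.08 and 4.65). Otx2, a factor of the early epiblast and the anterior brain, measured 2.1, 1.61 and 1.73, a mean of 1.81 (SE 0.18, adjusted p 2.75e-05). Of the midbrain and hindbrain list, 5 of 13 tested members were higher and 3 lower, with 3 higher without array 1 and 2 without array 3. Gbx2, of the anterior hindbrain and also of stem cells, fell by 2.26 (SE 0.43, adjusted p 0.00164), and En2, of the midbrain and hindbrain border, fell by 1.85 (SE 0.36, adjusted p 0.00196), while Irx1 rose by 2.08 (SE 0.14, adjusted p 3.35e-06). The Hox list is labelled posterior in the plot of list medians, though it holds the more anterior Hoxa3 and Hoxb4. Of its members, 11 of 25 were tested and 8 of them were higher, 5 without array 2, at a median of 0.45. Hoxb4 rose by 1.44 (SE 0.31, adjusted p 0.00337), and Hoxa3 was at least 2.48-fold higher (adjusted p 0.00238).

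Young neuron genes rose in part: 14 of 36 were higher and 3 lower (38.9% higher against 27.3% of all genes), with a median of 1.17, 0.075 and 1.04 on arrays 1, 2 and 3. The count of higher members was 7 without array 1, 8 without array 3 and 18 without array 2. Stmn4, a microtubule regulator of growing neurites, measured 4.46, 3.49 and 4.84, a mean of 4.26 (SE 0.47, adjusted p 5.46e-05). Gap43, the growth cone protein, measured 3.77, 1.89 and 3.78, a mean of 3.15 (SE 0.47, adjusted p 0.000381). Both lay above mESC on every array, lowest on array 2, without which Gap43 averaged 3.78.

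Among other neuronal markers, Dcx and Map2 were higher than in mESC, Tubb3 and Stmn2 did not pass the test, and Prph was lower. Dcx, doublecortin of migrating neurons, measured 2.71, 1.13 and 2.64 and was at least 4.27-fold higher (SE 0.58, adjusted p 0.011), a call lost without array 1 (1.89, adjusted p 0.0655) or array 3 (1.92, adjusted p 0.0693). Map2, a dendritic microtubule protein, measured 2.15, 0.41 and 2.24, a mean of 1.6 (SE 0.5, adjusted p 0.0227), lost without array 1 (1.32, adjusted p 0.118) or array 3 (1.28, adjusted p 0.137), and 2.19 without array 2. Tubb3, neuronal beta-tubulin, measured 1.17, -1.67 and 0.079, a mean of -0.14 (SE 0.66, adjusted p 0.877), so its arrays lay on both sides of mESC. Stmn2, a further neurite protein, averaged -0.62 (SE 0.38, adjusted p 0.197). Without array 2 Tubb3 came to 0.62 with an adjusted p of 0.527. Prph, an intermediate filament of peripheral neurons, fell by 1.16 (SE 0.17, adjusted p 0.000324).

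The antigen used for the enrichment of the other group was measured in these unsorted cells too. Ncam1, its protein backbone, measured 2.88, 1.62 and 2.86, a mean of 2.45 (SE 0.3, adjusted p 0.000111). Of the sialyltransferases that add the polysialic acid, St8sia4 measured 2.1, 0.33 and 1.63 (mean 1.35, SE 0.45, adjusted p 0.0282) and St8sia2 0.88, -0.19 and 0.74 (mean 0.48, SE 0.19, adjusted p 0.0623). The St8sia4 call was lost without array 1 (0.98, adjusted p 0.17), without array 3 (1.22, adjusted p 0.125) and with the 3 arrays fitted alone (adjusted p 0.0557), and St8sia2 passed without array 2 (0.81, adjusted p 0.00326).

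Synaptic genes had 17 of 32 tested members higher (53.1% against 27.3% of all genes) and 1 lower, with a median of 0.6. Snap25, a membrane fusion protein of the nerve terminal, measured 1.41, 1.12 and 1.56, a mean of 1.36 (SE 0.095, adjusted p 3.71e-06), with the 3 arrays closer together than for any marker of young neurons named above. Syt1, the calcium sensor of synaptic vesicles, was at least 4.16-fold higher (2.82, 0.96 and 2.39, adjusted p 0.0115), a call lost without array 1 (1.68, adjusted p 0.0778) or array 3 (1.89, adjusted p 0.0657). Of the neuropeptide list 11 of 18 tested members were higher and 1 lower; Scg2, secretogranin of dense granules, was at least 21.2-fold higher and Chgb, a second granin, averaged 4.03 (SE 0.36, adjusted p 1.47e-05). Trh, the precursor of thyrotropin-releasing hormone, was the member that fell, and stood among the largest falls of all genes at -2.83, -4.35 and -4.36 (mean -3.85, SE 0.33, adjusted p 1.14e-05).

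Transmitter classes differed in how many members could be tested at all. Of the GABAergic list 11 of 20 were tested, with 6 higher and 0 lower at a median of 1.57, and 2 were higher without array 1 or without array 3. Abat, which degrades GABA, measured 3.3, 2.69 and 3.5, a mean of 3.16 (SE 0.3, adjusted p 2.03e-05). Slc32a1, the vesicular GABA transporter, averaged 2.47 (SE 0.73, adjusted p 0.0176), and Gad2, a GABA-making enzyme, 2.01 (SE 0.56, adjusted p 0.0134). Both calls were lost without array 1 (adjusted p 0.0954 for Slc32a1 and 0.0961 for Gad2) or array 3 (adjusted p 0.0968 and 0.077), and without array 2 the means were 3.14 and 2.7. Gad1, the other GABA-making enzyme, lay at the mESC level (0.41, -0.69 and 0.39, mean 0.04, SE 0.66, adjusted p 0.966). Of the glutamatergic list 8 of 15 were tested and 2 were higher (25% of those tested). That count was 0 without array 1 or array 3, and 4 with the replicate number as a block. Of the dopaminergic and serotonergic list 3 of 14 tested members were higher (21.4%), and of the cholinergic and motor neuron list 0 of 5. Among all genes 27.3% were higher. Th, which makes dopamine's precursor, averaged 0.34 (SE 0.18, adjusted p 0.135). The glutamate transporter Slc17a6 and the acetylcholine enzyme Chat were not tested.

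Astrocyte genes rose as a group, with 14 of 19 tested members higher (73.7% against 27.3% of all genes) and 0 lower. Their medians were 2.21, 0.65 and 2.21 on the 3 arrays. Sparcl1, a matrix protein secreted by astrocytes, measured 7.12, 3.62 and 7.42, a mean of 6.05 (SE 0.8, adjusted p 0.000174), or 7.27 without array 2 and 5.37 without array 3. Gfap, the astrocyte filament protein (probe at chr11:102748864-102748923), measured 4.92, 0.59 and 5.51, a mean of 3.67 (SE 0.74, adjusted p 0.00238), and Aqp4, their water channel, 3.61, 0.62 and 4.48, a mean of 2.9 (SE 0.61, adjusted p 0.00296). Arrays 1 and 3 thus lay far above mESC and array 2 near it. Without array 2 the means were 5.22 for Gfap and 4.04 for Aqp4, without array 3 they were 2.76 and 2.11, without array 1 that of Gfap was 3.05, and with the 3 arrays fitted alone both calls were lost (adjusted p 0.0617 and 0.056). Sox9, a glial transcription factor, was at least 5.45-fold higher at 2.91, 0.82 and 3.72 (adjusted p 0.00175), with a mean of 2.48 that was 3.31 without array 2 and 1.87 without array 3.

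Oligodendrocyte lineage genes gave 7 of 17 tested members higher (41.2%) and 3 lower (17.6%), where 27.3% and 21.2% of all genes were. The count of higher members was 4 without array 1 or array 3, 10 without array 2 and 3 with the 3 arrays fitted alone. Pdgfra, the receptor of oligodendrocyte precursors and also of fibroblasts, was at least 7.5-fold higher at 2.93, 2.4 and 3.4 (adjusted p 0.000276). Olig1, a defining factor of the lineage, fell by 1.69 (arrays -0.91, -2.84 and -1.31, SE 0.39, adjusted p 0.00466), and its relative Olig2 by 0.77 (SE 0.24, adjusted p 0.0205). The mean of Olig1 was -1.11 without array 2. Mbp, myelin basic protein, measured 0.045, 1.62 and 0.78 and did not pass the test (mean 0.82, SE 0.4, adjusted p 0.115, and adjusted p 0.00408 with the replicate number as a block). Mobp, another myelin gene, fell by 1.21 (SE 0.16, adjusted p 0.000154).

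Endoderm genes and several genes of epithelium and muscle were highest on array 2. Of the endoderm list 11 of 20 tested members were higher and 3 lower, with medians of 0.36, 2.29 and 1.37, and 4 were higher without array 2. Afp, alpha-fetoprotein of yolk sac and fetal liver (probe at chr5:90937781-90937840), measured 1.62, 6.7 and 4.03 and was at least 17.3-fold higher (mean 4.12, SE 0.85, adjusted p 0.00274), with a mean of 2.82 and an adjusted p of 0.0207 without array 2 and a mean of 5.36 without array 1. Foxa2, an endoderm transcription factor, was at least 5.86-fold higher at 0.92, 4.76 and 1.97 (adjusted p 0.0176), a call lost without array 2 (1.45, adjusted p 0.148) and with the 3 arrays alone (adjusted p 0.0713), with a mean of 2.55 that was 3.37 without array 1. Dab2, an adaptor protein of visceral endoderm, was at least 11.6-fold higher at 2.8, 4.36 and 3.45 (adjusted p 0.000534). Array 2 had the highest value for 16 of 20 endoderm genes (80%), against 36.3% of all genes.

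Keratins of simple epithelium rose, at 2.32, 5.35 and 3.59 for Krt18 (mean 3.75, SE 0.86, adjusted p 0.00462) and 2.36, 4.45 and 3.56 for Krt8 (mean 3.46, SE 0.73, adjusted p 0.00299). Krt18 came to 2.95 without array 2 and 4.47 without array 1. Other epithelial genes did not follow: Cdh1, the adhesion protein E-cadherin that mESC also carry, averaged 0.078 (SE 0.47, adjusted p 0.905), Rab25 fell by 1.76 (SE 0.091, adjusted p 6.48e-07) and Krt17 by 3.07 (SE 0.094, adjusted p 6.72e-08). The list had 5 members higher and 5 lower of 21, 8 lower without array 2, 3 lower without array 1 or array 3, and with the replicate number as a block 6 higher and 9 lower.

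Muscle contractile genes had 11 of 21 tested members higher (52.4% against 27.3% of all genes) and 1 lower. Their median of 0.89 fell to 0.29 without array 2, with 8 higher. The smooth muscle genes were close on all 3 arrays: Acta2, smooth muscle actin, which contractile fibroblasts also express, measured 3.34, 3.95 and 3.46 (mean 3.58, SE 0.2, adjusted p 1.07e-06), Myl9 averaged 3.82 (SE 0.29, adjusted p 6.53e-06) and Tagln 4.1 (SE 0.49, adjusted p 8.41e-05). Some heart genes were high on 1 array. Mybpc3, a heart muscle binding protein, measured -0.15, 4.68 and 0.2, and Myl3, a heart myosin light chain, -0.48, 4.14 and 0.92, and neither passed the test (adjusted p 0.147 and 0.22), although both did with the replicate number as a block (adjusted p 0.024 and 0.00285). Their means of 1.57 and 1.53 became 0.024 and 0.22 without array 2. Tnni3, a heart troponin, was lower than mESC instead, with a mean of -0.94 (adjusted p 0.000466), or -0.84 without array 2.

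**Figure D2:**
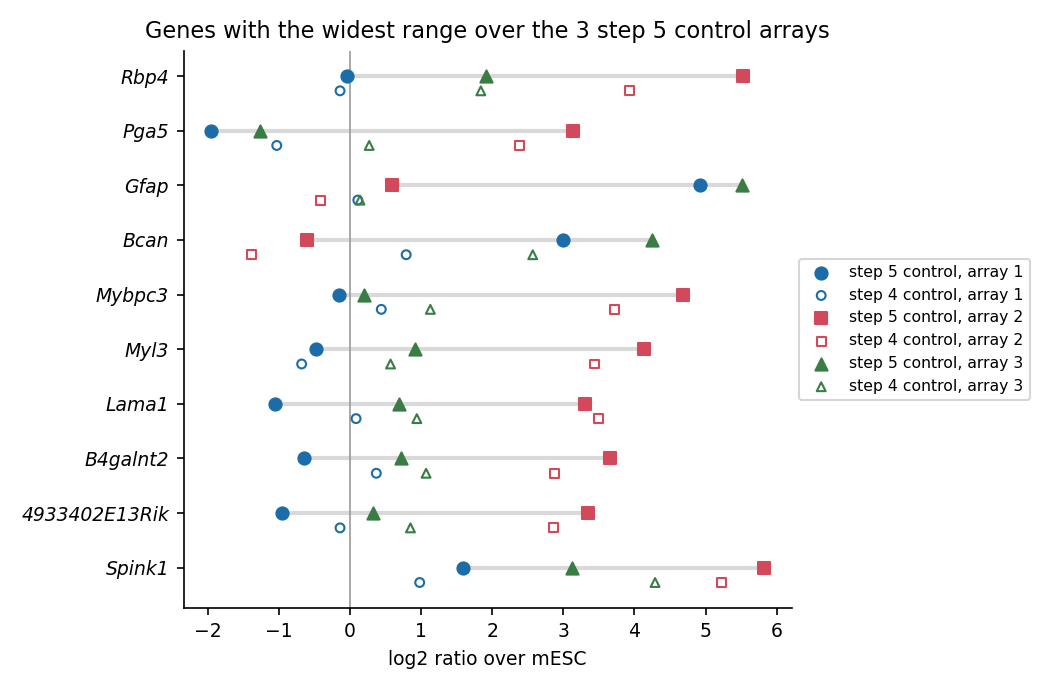
Log2 ratio to mESC (horizontal axis) on arrays 1, 2 and 3 for the 10 genes with the widest range over the step 5 control arrays, with filled symbols for step 5 control and open ones for step 4 control on the same slides. Mybpc3 reaches 4.68 and Rbp4 5.52 on array 2, against 0.2 and 1.91 on array 3.

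Among the 10 widest ranges, shown in the plot of array values by slide, array 2 was the high one for 8 genes and the low one for the astrocyte genes Gfap and Bcan. Rbp4, the retinol carrier of visceral endoderm and liver, measured -0.043, 5.52 and 1.91 (mean 2.46, SE 1.11, adjusted p 0.0897, and adjusted p 0.000104 with the replicate number as a block). Its mean was 0.93 without array 2. Pga5, a pepsinogen, measured -1.95, 3.14 and -1.27 and averaged -0.027, or -1.61 without array 2. Spink1, a trypsin inhibitor, measured 1.59, 5.82 and 3.12 (mean 3.51, SE 1.09, adjusted p 0.0221), a call lost without array 2 (2.36, adjusted p 0.157) or array 3 (3.7, adjusted p 0.0669), and 4.47 without array 1. The slide 2 array of step 4 control cells was high for endoderm genes as well, with list medians of 0.25, 2.28 and 0.76 on slides 1, 2 and 3, and so was that of step 5 enriched cells at -0.28, 1.71 and 0.1. In the opposite sense, array 2 was lowest for 31 of 36 young neuron genes (86.1%), 11 of 11 GABAergic genes (100%) and 23 of 25 mitosis genes (92%), against 44.5% of all genes. For young neuron genes the slide 2 array was also the lowest of the step 4 control cells, at 0.45 against 1.17 and 1.93. It was so for GABAergic genes too, at 0.35 against 1.49 and 3.25. For mitosis genes it was instead the highest of the step 4 control cells, at -0.26 against -0.52 and -0.32.

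The endothelial, blood and trophoblast lists each had members on both sides of mESC. Of the endothelial list 3 of 15 tested members were higher (20%) and 6 lower (40%), against 27.3% and 21.2% of all genes. With the replicate number as a block 5 were higher and 7 lower. Flt1, a receptor of vascular growth factor also found on trophoblast, rose by 2.37 (SE 0.55, adjusted p 0.00525), and Mmrn2 fell by 1.71 (SE 0.16, adjusted p 1.67e-05). Pecam1, which mESC also express, averaged -0.17 (SE 0.075, adjusted p 0.0917), or 0.24 after median centring with an adjusted p of 0.0425. Of the blood and microglia list 10 of 20 were tested, 4 higher and 2 lower, and Csf1r, the microglial growth factor receptor, did not pass (1.47, SE 0.59, adjusted p 0.0602, and adjusted p 0.000406 with the replicate number as a block). Of the trophoblast list 5 of 10 tested members were higher and 1 lower at a median of 0.82, with 2 higher without array 2, 1 without array 3 and 8 with the replicate number as a block. Foxc1, a factor of paraxial mesoderm and head mesenchyme, rose by 2.57 (SE 0.29, adjusted p 6.02e-05), while Tcf15, of early mesoderm and also of mESC on their way out of self-renewal, fell by 2.85 (SE 0.25, adjusted p 1.28e-05).

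Core pluripotency factors were lower than mESC by about a factor of 2 at the median: -0.97, -0.88 and -0.89 on the 3 arrays, a median of -0.9. Of 17 members 9 were lower, 8 did not pass the test and 0 were higher (21.2% of all genes were lower), 15 lay below mESC on all 3 arrays (30.4% of all genes did), and 5 were lower after median centring. Sox2, which neural precursors share, measured -1.42, -2.09 and -1.36, a mean of -1.62 (SE 0.19, adjusted p 7.68e-05). Nr0b1, a repressor of the stem cell network, measured -1.14, -2.35 and -2.41 (mean -1.97, SE 0.39, adjusted p 0.00221). Nr5a2 averaged -1.29 (SE 0.41, adjusted p 0.0241) and lost its call without array 2 (-0.79, adjusted p 0.181) or array 3 (-1.45, adjusted p 0.0541).

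The core factors Pou5f1, Nanog and Zfp42 did not pass the test. Pou5f1 (probe at chr17:35647280-35647340) measured -0.5, -0.7 and -0.86, a mean of -0.69 (SE 0.34, adjusted p 0.117), or 1.61-fold lower. Nanog measured -0.81, -0.88 and -0.37, a mean of -0.69 (SE 0.54, adjusted p 0.313), with 1 of its 3 probes above mESC, and Zfp42 -0.97, -0.94 and -0.93, a mean of -0.95 (SE 0.45, adjusted p 0.104). All 3 genes lay below mESC on every array, and the spread that the model used comes from all 12 arrays. With the 3 arrays alone the adjusted p was 0.0206 for Pou5f1, 0.0307 for Nanog and 0.00862 for Zfp42, and without the arrays of slide 2 it was 0.0121, 0.0417 and 0.00409. After median centring Pou5f1 lay at -0.19 and Nanog at -0.15, below a median gene at 0.36.

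Further stem cell genes fell more often than all genes, with 13 of 23 tested members lower and 1 higher at a median of -0.82, 8 lower without array 3 and 5 after median centring. Dppa5a, an RNA-binding protein of undifferentiated cells, measured -1.55, -1.7 and -1.43, a mean of -1.56 (SE 0.32, adjusted p 0.00254), with an adjusted p of 0.0543 after median centring. Eras, a Ras protein of stem cells, averaged -1.76 (SE 0.16, adjusted p 1.4e-05). Among the Nodal pathway genes, 1 of 12 was higher and 4 lower at a median of -0.15, but 4 and 2 after median centring, where the median was 0.28. Its inhibitors Lefty1 and Lefty2, which are also its targets, fell most: Lefty2 measured -2.54, -4.69 and -3.47 (mean -3.57, SE 0.3, adjusted p 1.03e-05) and Lefty1 -1.4, -4.34 and -2.49 (mean -2.74, SE 0.42, adjusted p 0.000448), or -1.94 without array 2 and -3.42 without array 1. The largest fall of all was that of Glod5 at -4.39, -4.12 and -3.92 (mean -4.14, SE 0.18, adjusted p 1.92e-07). Gtsf1l, a relative of a germline factor, averaged -3.24 (SE 0.2, adjusted p 1.93e-06), and Pramel6, of the PRAME-like family of early embryos, -2.75 (SE 0.16, adjusted p 1.18e-06).

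Germline and meiosis genes rose above mESC as a group. Of 43 members 39 were tested, and 22 were higher and 4 lower (56.4% higher against 27.3% of all genes), with medians of 0.66, 0.8 and 0.97 on the 3 arrays. Spo11, Sycp2, Tdrd1 and Tdrd6 were not tested. Outside the germline many of these genes are held silent by DNA methylation of CG-rich promoters and by repressors that bind the letters CACGTG or GCGGGAA, and the promoters of 5 members described next are printed to show which hold the former. They are the 250 bases before the start of the gene, 5′ to 3′ on the gene's strand, from RefSeq on GRCm38.p6, a later build than that of the probes, with CACGTG in capitals.
Sycp1, chr3:102936101-102936350, minus strand: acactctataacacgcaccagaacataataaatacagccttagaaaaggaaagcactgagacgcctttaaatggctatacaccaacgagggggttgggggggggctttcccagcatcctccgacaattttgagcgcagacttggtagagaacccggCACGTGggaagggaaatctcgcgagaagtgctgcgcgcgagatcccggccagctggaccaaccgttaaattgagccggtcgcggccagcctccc
Mael, chr1:166238745-166238994, minus strand: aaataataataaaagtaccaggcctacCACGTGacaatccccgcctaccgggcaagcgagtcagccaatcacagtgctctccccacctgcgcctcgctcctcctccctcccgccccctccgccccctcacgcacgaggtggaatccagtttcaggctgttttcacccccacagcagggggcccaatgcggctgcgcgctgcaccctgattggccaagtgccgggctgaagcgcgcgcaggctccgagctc
Ddx4, chr13:112652311-112652560, minus strand: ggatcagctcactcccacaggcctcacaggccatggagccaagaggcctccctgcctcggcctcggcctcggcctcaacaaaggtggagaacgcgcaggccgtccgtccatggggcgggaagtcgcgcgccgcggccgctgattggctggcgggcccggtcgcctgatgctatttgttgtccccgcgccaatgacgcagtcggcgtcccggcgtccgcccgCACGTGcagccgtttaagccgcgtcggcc
Dazl, chr17:50293621-50293870, minus strand: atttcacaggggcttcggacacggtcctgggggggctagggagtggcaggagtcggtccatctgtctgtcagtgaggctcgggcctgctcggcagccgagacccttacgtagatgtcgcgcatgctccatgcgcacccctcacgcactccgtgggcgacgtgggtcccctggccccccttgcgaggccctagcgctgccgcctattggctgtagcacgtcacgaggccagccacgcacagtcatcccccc
Stra8, chr6:34920698-34920947, plus strand: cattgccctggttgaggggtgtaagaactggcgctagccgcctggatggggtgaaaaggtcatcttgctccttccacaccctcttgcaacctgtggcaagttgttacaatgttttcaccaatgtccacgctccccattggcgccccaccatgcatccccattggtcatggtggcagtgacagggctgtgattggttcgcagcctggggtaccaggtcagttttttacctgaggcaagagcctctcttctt

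The letters stood once in the promoters of Sycp1, Mael and Ddx4, at 94, 223 and 29 bases before the start, and in neither of those of Dazl and Stra8. CG pairs numbered 17 in Sycp1, 18 in Mael, 31 in Ddx4, 20 in Dazl and 5 in Stra8, where the median tested gene had 15. The median member of the germline list also had 15, with 18 among members that were higher and 12 among those that were lower or did not pass. CACGTG reads the same on both strands. Of the 35 list members with a window in RefSeq's table, 14 held it (40%), among them 11 of the 19 that were higher (57.9%), 2 of 11 that did not pass (18.2%) and 0 of 3 that were lower, against 1165 of 12295 genes tested here (9.48%) and 1854 of all 27025 promoters (6.86%). The letters GCGGGAA, searched on both strands, stood once in Ddx4 and in 9 of the 35 (25.7%), among them 5 of the 19 higher (26.3%), 3 of the 11 that did not pass (27.3%) and 1 of the 3 lower (33.3%), and in 919 of the tested genes (7.47%). These shares describe letters in a window and not binding, and methylation was not measured.

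Sycp1, a structural protein of the synaptonemal complex that joins paired chromosomes in meiosis (probe at chr3:102622573-102622632), measured 3.29, 3.56 and 3.23, a mean of 3.36 (SE 0.24, adjusted p 4.02e-06), or 10.3-fold, with the 3 arrays close together. Dazl, an RNA-binding protein of germ cells, measured 2.99, 1.72 and 2.99, a mean of 2.57 (SE 0.3, adjusted p 6.99e-05). Ddx4, the germ cell RNA helicase also called Vasa, measured 2.25, 2.6 and 2.63, a mean of 2.49 (SE 0.42, adjusted p 0.000749), and Mael, which acts in the silencing of transposons, 2.04, 2.68 and 2.18, a mean of 2.3 (SE 0.34, adjusted p 0.000355). These 4 genes were thus 4.93-fold to 10.3-fold above the mESC level on average, and no array lay below it.

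Stra8, a retinoic acid target that starts meiosis, measured 3.57, 1.29 and 4.07, a mean of 2.98 (SE 0.53, adjusted p 0.00112), or 3.82 without array 2. The direction was not shared by all members. Rhox5, a homeobox gene of the reproductive tract and of stem cells, fell by 1.82 (arrays -2.18, -1.32 and -1.97, SE 0.36, adjusted p 0.00217), and Dnd1, a protector of germ cell RNAs, by 1.03 (SE 0.19, adjusted p 0.00134). Rpl39l, a ribosomal protein of the testis, measured -0.12, -3.1 and 0.1 and did not pass the test (-1.04, SE 0.51, adjusted p 0.115). Its mean was -0.0075 without array 2. Among retinoid genes 10 of 20 were higher and 3 lower, 6 higher without array 3, and Dhrs3, a retinaldehyde reductase that retinoic acid induces, rose by 2.6 (SE 0.32, adjusted p 0.000116).

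**Figure D3:**
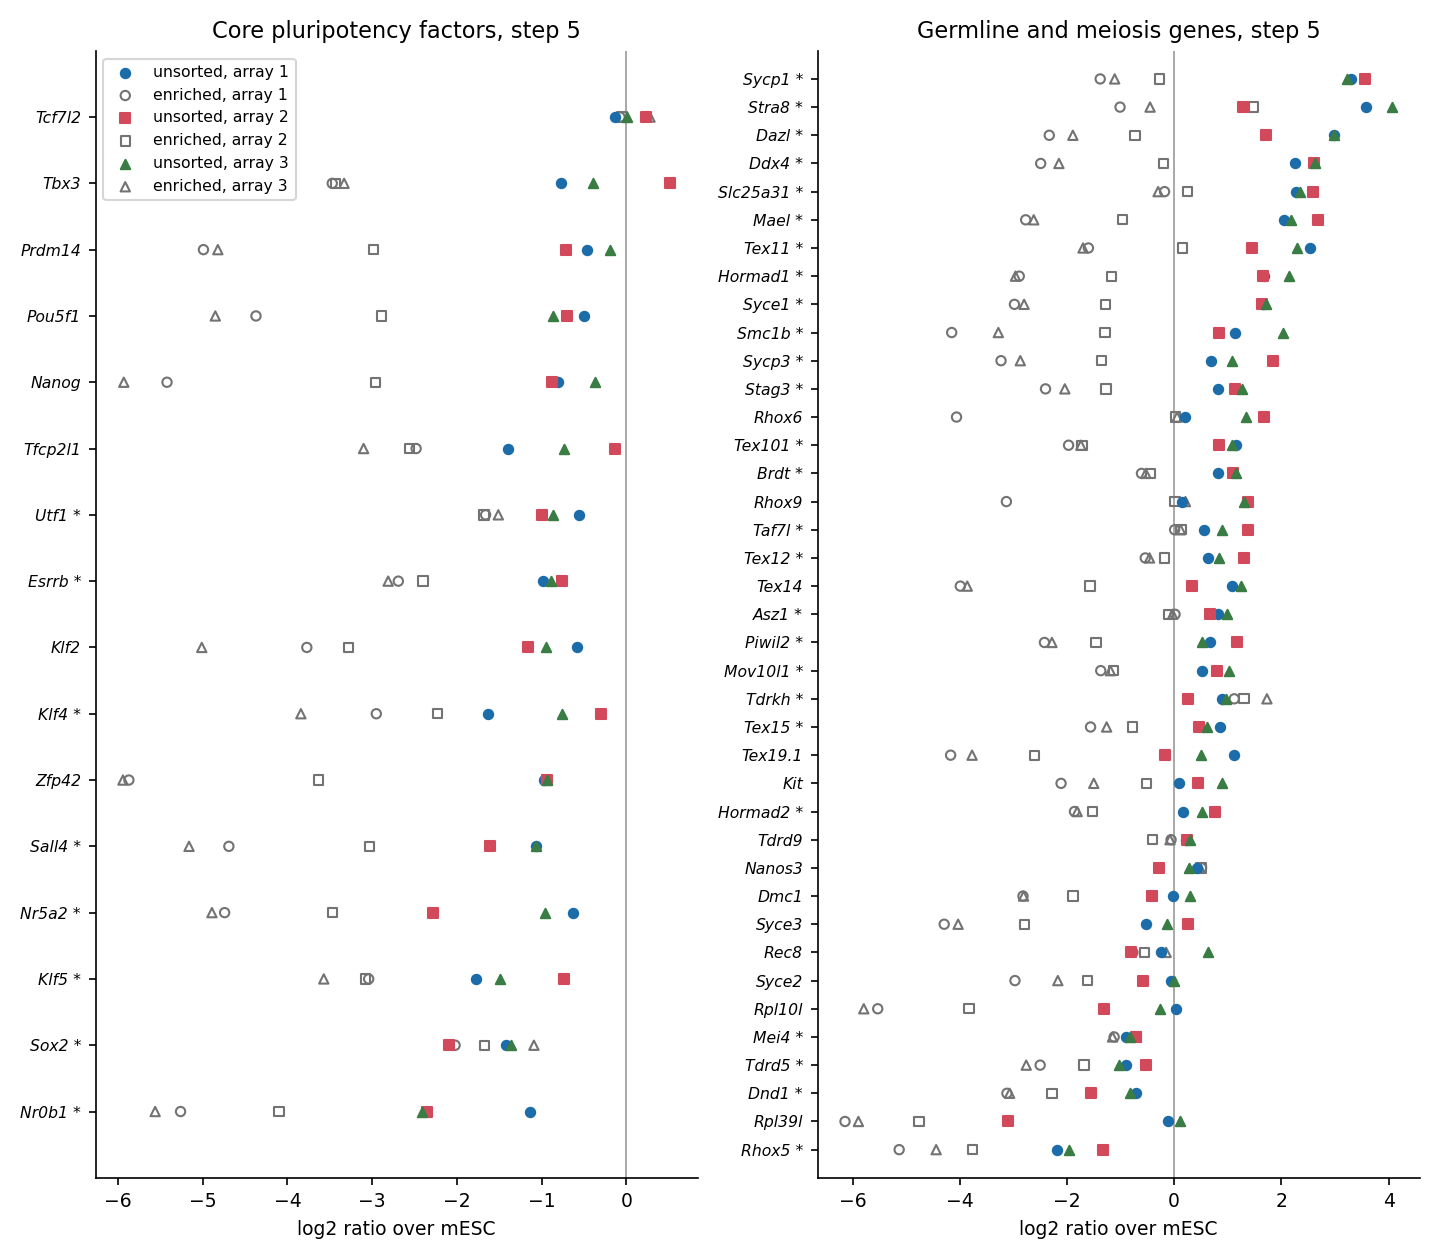
Log2 ratio to mESC (horizontal axis) of 16 core pluripotency factors and of the 39 tested germline and meiosis genes, with filled points for the 3 step 5 control arrays and open grey points for the 3 step 5 enriched arrays, and an asterisk beside genes past the test in step 5 control cells against mESC. The step 5 control arrays put Pou5f1 between -0.86 and -0.5 and Sycp1 between 3.23 and 3.56, and the enriched arrays lie at -4.85 to -2.89 and at -1.38 to -0.27.

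More genes of mitosis and DNA replication were lower than higher, an order that turned for DNA replication after median centring. Of 25 mitosis genes 18 were lower and 0 higher, with a range from -0.97 to -0.13 and a median of -0.55, 13 without array 2, 12 with the 3 arrays alone and 5 after median centring, where the median was -0.12 against 0.36 for all genes. Of 24 DNA replication genes 10 were lower and 1 higher, with a range from -1.36 to 1.37 and a median of -0.45, 4 without array 2, 5 with the 3 arrays alone, and 1 lower and 3 higher after median centring. Top2a, the topoisomerase of dividing cells, measured -0.78, -1.21 and -0.42, a mean of -0.81 (SE 0.14, adjusted p 0.000919), and Aurka, a kinase of the mitotic spindle, averaged -0.97 (SE 0.16, adjusted p 0.000634). Mki67, the proliferation marker, averaged -0.65 (SE 0.17, adjusted p 0.00896), a call lost without array 2 (-0.36, adjusted p 0.0654), after median centring (-0.18, adjusted p 0.262) and with the 3 arrays alone (adjusted p 0.0898). Array 2 was the lowest for each of these 3 genes.

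Cholesterol synthesis genes had the largest share of members lower, 19 of 24 with 1 higher, at a median of -1.0 (-0.85, -1.12 and -1.12 on the 3 arrays). Mvd, which makes isopentenyl units, measured -1.19, -1.72 and -1.52, a mean of -1.48 (SE 0.23, adjusted p 0.000521), Dhcr7, of the last step to cholesterol, -1.42, -1.57 and -1.34, a mean of -1.44 (SE 0.2, adjusted p 0.000261), and Idi1 averaged -1.42 (SE 0.24, adjusted p 0.000912). Ebp was the member that rose, by 0.32 (SE 0.1, adjusted p 0.0242), and it lost its call without array 1 (0.24, adjusted p 0.14), without array 2 (0.31, adjusted p 0.0748) and with the 3 arrays alone (adjusted p 0.0961).

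Lysosome genes had 14 of 25 members higher and 0 lower, at medians of 0.25, 1.27 and 0.68, and array 2 was the highest for 20 of them. Ctsh, a cathepsin protease, measured 2.68, 5.22 and 3.44 (mean 3.78, SE 0.6, adjusted p 0.000535), or 3.06 without array 2, and Ctsb averaged 1.79 (SE 0.22, adjusted p 0.000116). Imprinted genes, of which 1 parental copy is silent, had 15 of 23 members higher and 2 lower at a median of 1.09. Dlk1, a growth regulator of the embryo, measured 5.44, 4.52 and 5.27 (mean 5.08, SE 0.36, adjusted p 3.8e-06), Plagl1 3.74, 3.57 and 3.82 (mean 3.71, SE 0.42, adjusted p 6.31e-05), and H19, a noncoding RNA, 3.58, 2.72 and 3.81 (mean 3.37, SE 0.24, adjusted p 4.2e-06). Phlda2, a growth restrictor of the placenta, went the other way and fell by 1.75 (SE 0.18, adjusted p 2.93e-05). In the 3 rising imprinted genes named here every array lay well above mESC.

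Among genes of response to signals, 11 of 23 MHC class I and interferon genes were higher and 3 lower, 7 higher without array 2 and 5 without array 3, and 14 and 5 with the replicate number as a block. B2m, the light chain of MHC class I, measured 1.79, 3.47 and 2.65 (mean 2.64, SE 0.34, adjusted p 0.000132), and Ifit3, an interferon target, averaged 2.3 (SE 0.18, adjusted p 7.23e-06). Of 16 immediate early genes 8 were higher and 0 lower, 5 with the 3 arrays alone, with Jun at 1.81 (SE 0.22, adjusted p 9.35e-05). Of 26 glycolysis and hypoxia genes 5 were higher and 7 lower at a median of -0.13, 4 lower without array 2, but 10 higher and 3 lower after median centring, where the median was 0.39. Adm, a vasodilator peptide induced by low oxygen, rose by 3.34 (SE 0.44, adjusted p 0.000165). Notch pathway genes gave 3 higher (14.3%) and 4 lower (19%) of 21, below the 27.3% and 21.2% of all genes. Without array 2, 5 were higher. The lower count was 2 without array 1 or array 3, 2 after median centring and 7 with the scanner's normalization. Ribosomal protein genes were 19 higher and 3 lower of 36 at a median of 0.21, but 33 and 0 after median centring, where the median was 0.87, and 12 and 3 with the scanner's normalization.

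Set against the unsorted cells 1 step earlier, no gene passed the limma test: 0 of 20491 (0%) were called between step 5 control and step 4 control, while 1817 had an unadjusted p under 0.05. The median difference was 0.007. Other settings called between 0 and 1503 genes, the largest count when arrays were weighted by their quality and 391 without step 5 control replicate 2. The groups share slides, and with the replicate number as a block 1 gene was called. Gfap measured 0.11, -0.41 and 0.14 at step 4 against 4.92, 0.59 and 5.51 at step 5, which is 3.73 more (SE 1.05, adjusted p 0.27). Col1a1 measured 4.92, 4.43 and 4.64 at step 4, 2.5 lower than at step 5 (SE 0.61, adjusted p 0.208). Stra8 measured 0.17, -1.11 and -0.75 at step 4, a difference of 3.54 (SE 0.75, adjusted p 0.151), and Dazl 1.04, 0.81 and 0.47, a difference of 1.79 (SE 0.42, adjusted p 0.188).

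Several pluripotency and germline genes changed less between the steps than Stra8 and Dazl. The median core pluripotency factor lay at -0.97 at step 4 and -0.9 at step 5, and the median germline gene at 0.57 and 0.83. Pou5f1 averaged -0.67 at step 4 and -0.69 at step 5, a difference of -0.02 (SE 0.48, adjusted p 0.997), and Nanog -1.03 and -0.69. Sycp1 averaged 2.94 at step 4 and 3.36 at step 5, and Mael 2.22 and 2.3. At the list level, the median mesenchyme gene lay at 1.57 at step 4 and 2.82 at step 5, and the median astrocyte gene at 0.89 and 1.97, each without a member past the test of the difference. The p-values that missed the threshold do not show that the steps are alike.

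The PSA-NCAM-enriched cells of the same step differed from the unsorted cells in 8344 genes (40.7%), 3843 higher (18.8%) and 4501 lower (22%) in the enriched cells. Both groups are given as ratios to the same mESC RNA, and the difference between groups is tested in the same limma model. The 3 enriched arrays had Pou5f1 at -4.37, -2.89 and -4.85, below all 3 unsorted arrays, and lower by 10.2-fold (difference -3.35, SE 0.48, adjusted p 0.000513). Nanog was 17.0-fold lower (difference -4.08, SE 0.76, adjusted p 0.00209) and Zfp42 18.4-fold lower (difference -4.2, SE 0.63, adjusted p 0.000688). Without enriched array 2, the highest of the 3, the difference was -4.99 for Nanog and -4.96 for Zfp42. Sox2 did not differ beyond its spread, at -1.59 in enriched and -1.62 in unsorted cells (adjusted p 0.938). Of the 17 core pluripotency factors 14 were lower in enriched cells and 0 higher, and of the 39 germline genes 32 were lower and 1 higher. Fgf4, a stem cell growth factor and target of Pou5f1, was at -1.14 in unsorted cells and lower by 4.66 in enriched cells, a difference of -5.55 without enriched array 2 and -3.92 without enriched array 3.

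**Figure D4:**
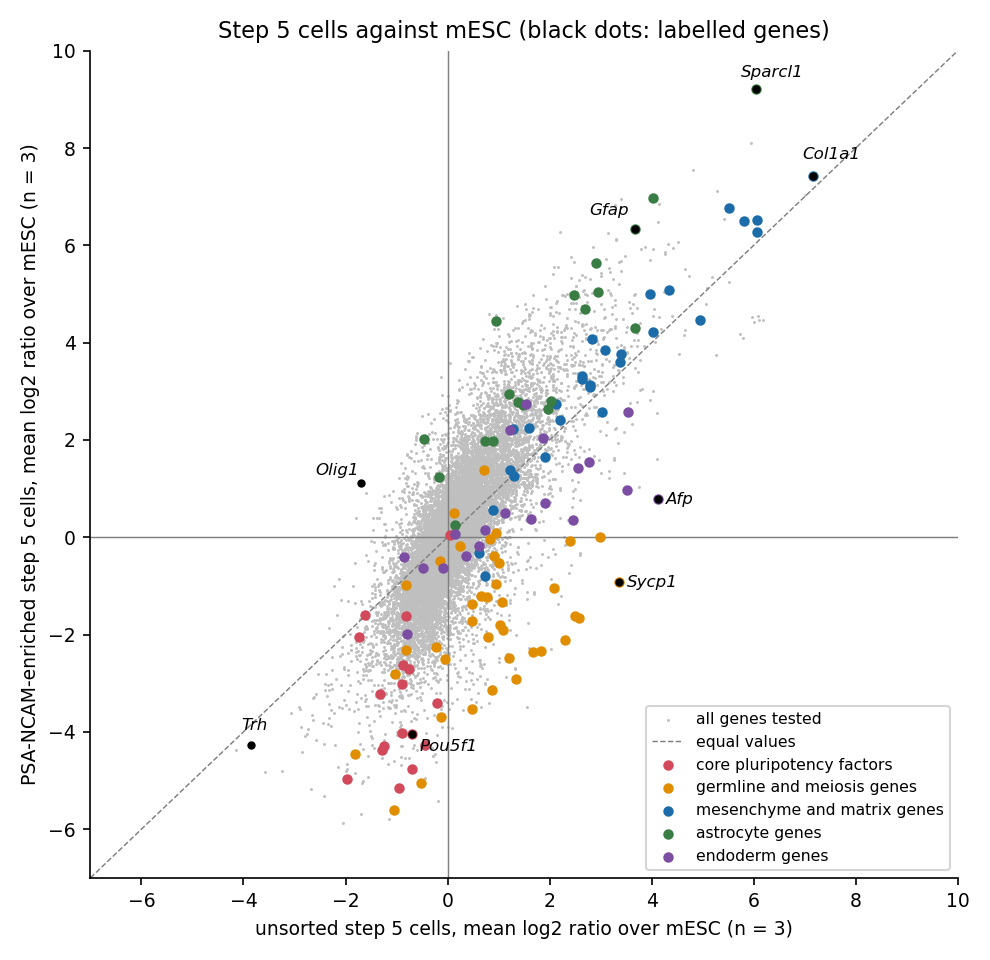
Mean log2 ratio to mESC of each tested gene in step 5 control cells (horizontal axis) and in step 5 enriched cells (vertical axis), with members of 5 lists coloured, labelled genes as black dots and a dashed line of equal levels. Sycp1 lies at 3.36 and -0.92 and Pou5f1 at -0.69 and -4.04, below the line, while Olig1 at -1.69 and 1.12 lies above it and Col1a1 at 7.16 and 7.42 close to it.

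Many neuronal and glial genes lay higher in the enriched cells, but not all markers named above did. Prph was lower (difference -1.33, adjusted p 0.0018), and Gfap (2.66, adjusted p 0.0667) and Snap25 (-0.1, adjusted p 0.584) did not pass the test. Of 36 young neuron genes 27 were higher and 3 lower in enriched than in unsorted cells, of 11 GABAergic genes 8 and 0, of 19 astrocyte genes 12 and 0, and of 17 oligodendrocyte lineage genes 12 and 0. Dcx averaged 5.56 in enriched cells against 2.16 (difference 3.4, SE 0.82, adjusted p 0.00813), Tubb3 2.56 against -0.14 (difference 2.7, SE 0.94, adjusted p 0.0417) and Gad1 3.59 against 0.04 (difference 3.55, SE 0.93, adjusted p 0.0118). Without the arrays of slide 2 the adjusted p of the difference was 0.0722 for Dcx, 0.145 for Tubb3 and 0.0812 for Gad1, and the Tubb3 call was also lost without step 5 control replicate 2 (1.93, adjusted p 0.143) or 3 (adjusted p 0.0758) and without enriched replicate 1, 2 or 3 (adjusted p 0.0871, 0.0769 and 0.104). Of 28 mesenchyme genes 0 were higher and 1 lower, and Col1a1 averaged 7.42 in enriched and 7.16 in unsorted cells (difference 0.25, SE 0.61, adjusted p 0.773). All 25 mitosis genes and 21 of 24 DNA replication genes were lower in enriched cells. Of 21 epithelial genes 10 were lower and 0 higher there. Of the endoderm list, 2 of 20 were lower and 1 higher, and Afp averaged 0.78 in enriched against 4.12 in unsorted cells (difference -3.33, SE 1.21, adjusted p 0.0482), a call ended by the omission of array 2 of the unsorted cells (adjusted p 0.162), by that of each of 3 other arrays and by median centring (adjusted p 0.0505).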

How the data were processed

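RNA of 12 samples in 4 groups of 3 biological replicates was measured on 2-colour Agilent mouse arrays, with the sample in Cy5 and mESC RNA in Cy3. Per the file headers, the deposited scanner files hold the mean signal and median local background of each spot as intensity, and a log ratio in log10 that the scanner's software had background-subtracted and dye-normalized. The authors' deposited value table is in log2 and equalled that log ratio to 0.001 for 99.4 to 99.5% of probes, and what the authors did to make it is not given in the sources used here. Feature Extraction 10.5.1.1 read slide 2 and 10.7.3.1 slides 1 and 3, per the file headers.

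From the intensities, background was corrected by normexp (offset 50) and each array normalized by loess in R 4.3.3 with limma 3.58.1 (files read with data.table, version 1.17.8), with no step between arrays. Of 44397 spots, 1377 control spots and 128 to 298 outlier spots per array were left out. Names came from the RefSeq list, with 26581 probes through the first accession, 100 through a further one, 2535 through the symbol and 474 through a synonym. The other 9739 of all 39429 probes, counted before the background filter, had no name and stood for themselves. Cy5 was well above background on 25605 to 29078 probes per step 5 control array and Cy3 on 24321 to 25494. Of the tested genes 18440 were above background in both channels on all 3 arrays, 0 were saturated and 8 had a missing value; the fit uses the arrays present. The number of arrays limits the precision.

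All 12 arrays entered 1 limma model on 4 group means (lmFit, eBayes) with two-sided tests and Benjamini-Hochberg adjustment over the 20491 genes. The 39 gene lists, the members and the rules below were chosen with earlier results of these data known, so no list is independent evidence of its direction. Genes named are fixed markers, the 12 largest rises and falls, the 6 largest bounds in each direction, the 2 largest rises, the 2 largest falls and the widest range of each list, the 10 widest ranges of all genes, and the 6 largest differences from the other groups; other list members are named only as markers or as untested. The deviations of arrays of the same number from their group means correlated at 0.715, 0.755 and 0.473 between step 5 and step 4 control. Between step 5 control and enriched cells they correlated at 0.195, 0.328 and 0.368. The numbers, which are also the slides, were therefore taken to pair the arrays in the alternative with a replicate block. The main model held no such block, so its SE and p leave the pairing out. Alternatives were other scalings, filters, probe rules, blocks, array weights and leaving out arrays; leaving out slide 2 was added after seeing the data. The code was tested on simulated data. Some genes that the rule names, and 1 core pluripotency factor in the plot, are not reported here. Figures were drawn with Python 3.11.15 and matplotlib 3.10.9 (tables with pandas 2.3.3).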

Additional observations from a re-analysis of the deposited data

Results flagged for a closer look

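The enriched and unsorted cells of step 5 lay on opposite sides of mESC for some genes, with each group past the test against mESC and their difference past it too (limma, adjusted by Benjamini and Hochberg). In 204 of the 20491 genes tested the unsorted cells were above mESC and the enriched cells below it, and 163 of the 204 have a symbol. In 99 of the 20491 genes, 93 of the 99 with a symbol, the order was the reverse.

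In the first set the largest differences, enriched minus unsorted, were those of Aqp3, a water and glycerol channel of epithelia, at -5.05 (from 1.56 to -3.49), Mael, a transposon silencing factor, at -4.42 (from 2.3 to -2.12), Gm7167 at -4.31 (from 2.02 to -2.29), Sycp1, of the synaptonemal complex, at -4.28 (from 3.36 to -0.92), Smc1b, a meiotic cohesin, at -4.24 (from 1.34 to -2.91), and Dazl, a germ cell RNA-binding protein, at -4.22 (from 2.57 to -1.65). By the rule that defines this set, the unsorted mean of these 6 genes lies above mESC and the enriched mean below it. In the other set they were those of Olig1, a factor of the oligodendrocyte lineage, at 2.8 (from -1.69 to 1.12), Asphd2 at 2.45 (from -0.91 to 1.53), Ppp2r2c, a brain subunit of a phosphatase, at 2.38 (from -0.47 to 1.9), Slc29a4, a monoamine transporter, at 2.1 (from -1.25 to 0.85), Pnma2 at 2.01 (from -1.06 to 0.95) and Aif1l at 1.99 (from -0.79 to 1.2). Without enriched array 2 the difference was -5.68 for Aqp3, and without the arrays of slide 2 it was -5.1 for Dazl. Genes of these sets were picked by their size of difference after values were seen.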

How the results depend on the processing

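Against mESC, 9932 genes were called. The count was 6223 with the 3 arrays fitted alone, between 7377 and 8525 without 1 of the arrays, 7720 without slide 2, and between 8814 and 13404 under the other settings, the most with array weights. With the replicate number as a block, which the pairing of arrays allows, 11320 genes were called. Between step 5 and step 4 control, where 0 genes were called, array weights called 1503, slide as a random block 52, leaving out slide 2 75, the scanner's log ratio 3, the deposited values 3, the replicate block 1, and leaving out 1 array 0 to 391. Between enriched and unsorted cells the count of 8344 stayed within 1.5 times under all settings run, from 5642 without slide 2. Against mESC the block ended no call of a named gene. It added calls, among them that of Bcan (adjusted p 0.0253 with the block and 0.0722 without). Between enriched and unsorted cells it changed calls in both directions. It added that of Krt18 (adjusted p 0.00664, from 0.0975) and ended that of Cd34 (adjusted p 0.0511, from 0.038).

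Of 212 named genes with a value 172 were called against mESC, and 22, 15 and 28 of these calls were lost without arrays 1, 2 and 3, 25 with the 3 arrays alone, 22 after median centring, and 0 with the block. Median centring turned the sign of Pecam1 (0.24), Rps18 (0.26) and Rps2 (0.42), from -0.17, -0.35 and -0.23; it raises the median gene to 0.36. Over both comparisons 6816 values of named genes kept their side of the threshold, 335 lost and 200 gained it. List medians moved by more than the spread over arrays in 113 cases and by less in 511. Signal near background limits low genes, and 792 genes have only a bound on the mESC side.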
